A study of Mus musculus with 32 samples.

Results

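The genes of cholesterol and fatty acid synthesis were measured in mouse E14 embryonic stem cells as they exited naive pluripotency. The set holds 30 genes, chosen by name as enzymes and regulators of the 2 pathways, out of 31053 Ensembl genes in the count files, and each name matched 1 gene. It comprises 18 genes of sterol synthesis, 4 genes of its regulation and transport (Insig1, Srebf1, Srebf2 and Stard4) and 8 genes of fatty acid synthesis and desaturation, and does not hold every enzyme of either pathway. All 30 passed the filter on low counts, which left 12556 genes to test.

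E14 is an established line of mouse embryonic stem cells, and all libraries come from this 1 line. The cells were grown on gelatin in N2B27, a serum-free medium, with 2i or with 2iL, plated as single cells, and moved the next day to N2B27 alone. In 2i, GSK3 is inhibited by CHIR99021 at 3 uM and MEK by PD0325901 at 1 uM, both kinases of signalling pathways. The 2iL medium has LIF, a cytokine, added to these. Samples of the 2iL course were taken at 0, 24, 36, 48, 60, 72, 84 and 96 h after withdrawal and the 2i course at 0, 12, 24, 36, 48, 60, 72 and 84 h, where 0 h means cells still in 2iL or 2i. Withdrawal therefore removed 3 agents in the 2iL course and 2 agents in the 2i course, and time in culture goes with time after withdrawal. Poly(A) RNA was read from the 3′ end of transcripts in 2 libraries per group, 32 in all. The labels do not say how replicates were obtained, so the p-values measure only the spread between these libraries, which may be technical.

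Cholesterol synthesis starts from acetyl-CoA, passes through mevalonate and the isoprenoids, closes squalene into lanosterol and then trims lanosterol to cholesterol. Its genes are known to be switched on together by the transcription factor SREBP-2, which INSIG proteins hold back in the endoplasmic reticulum when sterols are plentiful. Fatty acid synthesis draws on the same acetyl-CoA, and its genes are known targets of SREBP-1c and of other lipid-sensing factors. Embryonic stem cells make much of their own sterol and lipid, the more so in a serum-free medium.

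Promoter sequences are shown because 11 of the 18 sterol genes rose at 24 h in the 2i course, while Ebp, a sterol gene, fell. RefSeq (GRCm38.p6) promoter windows, 250 bases before and 50 bases after the start of the gene, were matched by symbol for 23 of the 30 members, 28 windows in all. The windows were searched on both strands for TCACNCCAC, a form of the sterol regulatory element bound by SREBP, for CCAAT, the box bound by NF-Y, and for GGGCGG, the box bound by SP1. No window was found for Fdps, Fdft1, Sqle, Stard4, Scd1, Scd2 and Fads1. Shown here are the 180 bases before the start for 4 sterol genes that rose, for Ebp, and for the fatty acid genes Fasn and Elovl6. Each reads 5′ to 3′ along the gene, and capitals mark the matches on either strand (a match to CCAAT on the other strand reads ATTGG, a match to GGGCGG reads CCGCCC). A stretch with no capitals holds none of them. 
Hmgcs1, chr13:119690171-119690350, plus strand: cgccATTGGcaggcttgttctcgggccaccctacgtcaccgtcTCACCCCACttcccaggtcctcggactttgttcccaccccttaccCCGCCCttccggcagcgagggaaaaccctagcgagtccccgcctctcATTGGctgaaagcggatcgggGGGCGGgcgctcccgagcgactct
Mvk, chr5:114444089-114444268, plus strand: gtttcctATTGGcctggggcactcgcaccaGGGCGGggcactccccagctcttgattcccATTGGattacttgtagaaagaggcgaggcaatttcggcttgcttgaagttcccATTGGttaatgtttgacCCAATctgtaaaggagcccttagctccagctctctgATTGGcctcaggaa
Msmo1, chr8:64733579-64733758, minus strand: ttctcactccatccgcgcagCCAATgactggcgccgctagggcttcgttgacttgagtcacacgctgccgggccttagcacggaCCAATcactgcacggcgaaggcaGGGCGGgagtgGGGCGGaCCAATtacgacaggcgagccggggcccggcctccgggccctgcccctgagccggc
Cyp51, chr5:4104698-4104877, minus strand: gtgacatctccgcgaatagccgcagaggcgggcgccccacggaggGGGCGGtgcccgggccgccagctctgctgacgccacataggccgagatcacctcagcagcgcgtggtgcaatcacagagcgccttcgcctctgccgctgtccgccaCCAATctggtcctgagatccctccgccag
Ebp, chrX:8193513-8193692, minus strand: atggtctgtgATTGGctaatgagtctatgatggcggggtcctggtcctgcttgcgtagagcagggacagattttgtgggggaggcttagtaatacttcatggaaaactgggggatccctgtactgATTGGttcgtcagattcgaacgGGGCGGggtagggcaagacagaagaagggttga
Fasn, chr11:120824548-120824727, minus strand: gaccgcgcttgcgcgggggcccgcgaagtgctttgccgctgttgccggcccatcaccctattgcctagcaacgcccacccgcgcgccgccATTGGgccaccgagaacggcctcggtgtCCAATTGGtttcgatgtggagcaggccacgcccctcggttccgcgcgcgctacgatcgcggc
Elovl6, chr3:129532206-129532385, plus strand: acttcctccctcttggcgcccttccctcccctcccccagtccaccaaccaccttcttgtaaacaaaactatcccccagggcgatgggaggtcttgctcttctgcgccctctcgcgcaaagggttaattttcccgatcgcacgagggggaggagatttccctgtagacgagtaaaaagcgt
CCAAT was present in the windows of 14 of 15 sterol members, 3 of 3 regulators and 2 of 5 fatty acid members, against 43.6% of the 9717 tested genes with a window. GGGCGG was present in 14 of 15 sterol members, 3 of 3 regulators and 2 of 5 fatty acid members, against 69.8% of tested genes. TCACNCCAC was present in 1 of 15 sterol members, Hmgcs1, and in 1.43% of tested genes. No match to one of these motifs overlapped a match to another, and the 2 adjoining CCAAT matches of Fasn share bases because one lies on each strand. The window of Ebp held CCAAT and GGGCGG as the rising sterol genes did. A match is a string of letters and not a measured binding site.

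Library depth was 1122648 to 3438514 counts in the 31 libraries used, with a median of 1980949. Levels are in CPM, counts scaled to a common library size, and 3 counts correspond to 0.872 to 2.67 CPM. The library 2iL 36 h replicate 2 held 7298 counts and was left out, so 2iL 36 h rests on 1 library. Replicates differed by an SD of 0.41 to 0.53 on the log2 scale over genes in 2iL 48 h, 2iL 84 h, 2iL 96 h and 2i 12 h, against 0.20 to 0.37 in the other 11 groups with 2 libraries. The library taken as apart from the rest was replicate 1 at 2iL 48 h and at 2iL 96 h, and replicate 2 at 2iL 84 h and at 2i 12 h. The spread within a pair does not itself say which of its 2 libraries is apart. A fit without these 4 libraries leaves out the pairs with most spread, so calls gained in it are no independent support. The summed level of 6 ES cell markers was 2353 to 2429.7 CPM at 2iL 0 h and 1720.4 to 1762 CPM at 2i 0 h. It was 231 to 501 CPM in all libraries from 60 h (2iL) or 24 h (2i) onwards. The 6 primitive endoderm markers summed to 0.699 to 12.8 CPM, with Sox7 at 0 counts in 15 of 16 groups. The 5 trophectoderm markers summed to 4.67 to 60.4 CPM and the 5 fibroblast markers to 1.53 to 29.5 CPM. The 4 early neural markers reached 206 to 249 CPM at 2iL 96 h, against 28.9 to 32.4 CPM at 2iL 0 h, and 365 to 383 CPM at 2i 84 h, against 24.6 to 34.4 CPM at 2i 0 h. The part of these changes of cell state in the results below was not tested, and in bulk RNA fewer cells of a type and less RNA per cell cannot be told apart.

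**Figure D1:**
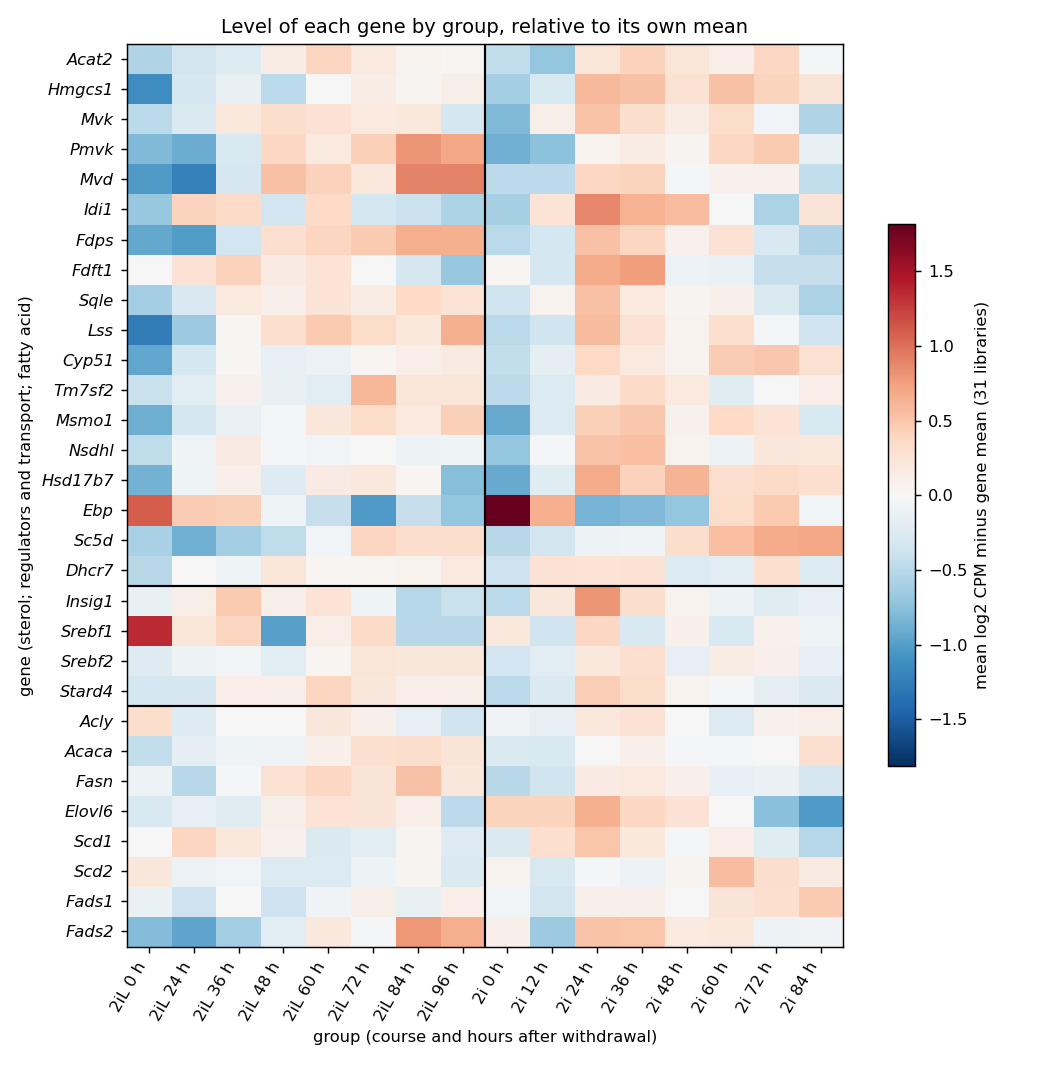
Heat map of the 30 genes (down the page, by branch) in the 16 groups (across, the 2iL course left of the 2i course). Colour is the mean log2 CPM of the group minus the mean of that gene over the 31 libraries, red above and blue below. Of the 18 sterol genes, 9 have their highest group at 2i 24 or 36 h and 4 at 2iL 84 or 96 h, and Ebp has its highest group at 2i 0 h.

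Before withdrawal few members passed the test between the 2 media. Of the 30 members, 3 were higher in 2i than in 2iL and the other 27 did not pass the test, while 8% of all tested genes were called, 3.75% higher and 4.24% lower in 2i. Ebp, the sterol isomerase, had 170.4 and 175 CPM in 2i and 102 and 107 CPM in 2iL. The 2i libraries lay above both 2iL libraries, a log2 difference of 0.72 ± 0.17 (SE, n = 2 against 2, adjusted p = 0.0042, edgeR). Elovl6, which elongates palmitate, had 168 and 154 CPM in 2i and 112 and 86.4 CPM in 2iL (log2 difference 0.70 ± 0.17, adjusted p = 0.0061, edgeR). Cyp51, the lanosterol demethylase, had 162 and 144 CPM in 2i and 109 and 108 CPM in 2iL (log2 difference 0.50 ± 0.16, adjusted p = 0.048, edgeR), and this call was lost with DESeq2 and without any one of the 4 libraries. The call of Ebp was lost without 2iL 0 h replicate 1, and that of Elovl6 without replicate 2 of 2iL 0 h or replicate 1 of 2i 0 h, so that 1 or 2 members were called without any one of the 4. Without the 4 libraries that stand apart, none of which belongs to this comparison, 10 members were called. The 7 added are Hmgcs1, Mvd, Fdps and Lss, higher in 2i, and Srebf1, Acly and Fasn, lower in 2i. Calls over all tested genes rose as well in that fit, to 1663 of 12400 from 1004 of 12556. With all 31 libraries in the fit, Srebf1, which encodes SREBP-1, had 9.53 and 8.24 CPM in 2i and 21.6 and 20.8 CPM in 2iL, groups that do not overlap (log2 difference -1.24 ± 0.42, adjusted p = 0.073, edgeR).

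In the 2iL course the sterol genes climbed over days. The count of members that rose was 3 at 24 h, 5 at 36 h, 10 at 48 h, 14 at 60 h, 16 at 72 h, 14 at 84 h and 14 at 96 h, always against 2iL 0 h. At 24 h 3 rose (5.65% of tested genes) and 2 fell (5.92%), so that 16.7% of members were called, against 11.6% of tested genes. At 36 h 5 rose (5.56%) and 1 fell (5.22%), in all 20% against 10.8%. At 48 h 10 rose (14.7%) and 3 fell (14.4%), in all 43.3% against 29.1%. At 60 h 14 rose (13.8%) and 3 fell (13.9%), in all 56.7% against 27.7%. Members that rose thus grew in number at each time up to 72 h. At 72 h 16 rose (14.6%) and 1 fell (14.1%), in all 56.7% against 28.8%. At 84 h 14 rose (17.6%) and 3 fell (17.2%), in all 56.7% against 34.8%. At 96 h 14 rose (19.5%) and 4 fell (20.1%), in all 60% against 39.5%. At 72 h 13 of 18 sterol genes rose and 1 fell, with a median log2 change of 0.99, while 2 of 8 fatty acid genes rose with a median of 0.27 and the median of all tested genes was 0.02. Tested over all 7 times jointly, 20 of 30 members changed in the 2iL course (66.7%, against 56.5% of tested genes). Without 2iL 0 h replicate 2 fewer members were called at 60 h. In the 2iL course alone 11 members instead of 17 were called at 72 h, and 2916 of 12208 tested genes. At 36 h, with its 1 library, fewer members were called without either 0 h library. More members, and more of all tested genes, were called at 36 h when the 4 libraries apart were left out.

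Among the enzymes of the mevalonate arm, Hmgcs1, which makes HMG-CoA, had 325 and 297 CPM at 2iL 0 h, 559.9 and 532 CPM at 24 h, and 617 CPM at 36 h. It had 409.8 and 571 CPM at 48 h, 702 and 657 CPM at 60 h, 676 and 812 CPM at 72 h, 913 and 542 CPM at 84 h, and 575 and 929.6 CPM at 96 h. Every library after withdrawal lay above both libraries at 0 h, and replicates parted widely at 84 and 96 h. The log2 change against 0 h was 0.81 ± 0.21 at 24 h (adjusted p = 0.0094, edgeR) and 1.26 ± 0.21 at 72 h (adjusted p = 1.9e-05, edgeR). Fdps, which makes farnesyl diphosphate, started later. It had 151 and 169 CPM at 2iL 0 h, 183 and 125 CPM at 24 h, and 240.4 CPM at 36 h. It had 444 and 321 CPM at 48 h, 377 and 426 CPM at 60 h, 401 and 451 CPM at 72 h, 383 and 606 CPM at 84 h, and 492 and 466 CPM at 96 h. The 24 h libraries lay on both sides of the 0 h libraries, and from 36 h on every library lay above them. Its log2 change was -0.05 ± 0.20 at 24 h (adjusted p = 0.92, edgeR) and 1.41 ± 0.19 at 72 h (adjusted p = 8.7e-07, edgeR).

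Mvd, the mevalonate diphosphate decarboxylase, had 512 and 502 CPM at 2iL 72 h and 217 in both libraries at 0 h, a log2 change of 1.22 ± 0.32 (adjusted p = 0.0038, edgeR). Its level at the times with a library that stands apart was 903 and 458 CPM at 48 h, 549 and 1257 CPM at 84 h, and 1088 and 637 CPM at 96 h, so that the library apart was higher at each of the 3 times. At 84 h its log2 change was 2.06 ± 0.32 with both libraries and 1.33 without replicate 2, called in both cases (adjusted p = 7.6e-06 and 0.0018, edgeR). Pmvk, the phosphomevalonate kinase, likewise had 164 and 291 CPM at 2iL 84 h, against 69.1 and 73.5 CPM at 0 h (log2 change 1.67 ± 0.24, adjusted p = 1.3e-06, edgeR). Acat2, which makes acetoacetyl-CoA, rose at 72 h by a log2 change of 0.72 ± 0.14 and Mvk, the mevalonate kinase, by 0.72 ± 0.23 (adjusted p = 2.2e-04 and 0.02, edgeR). The call of Mvk was lost in the 2iL course alone and without any of 3 single libraries. Counts of Acat2 are uncertain as far as reads of its close copy Acat3 fall on it. Idi1, the isopentenyl diphosphate isomerase, gave 276 counts over all 32 libraries and passed no test in either course in the main fit on 31 libraries.

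Of the enzymes that make and modify lanosterol, Lss, the lanosterol synthase, changed most at 72 h in the 2iL course among those that rose, to 41.2 and 50.3 CPM, against 12.1 and 16.8 CPM at 0 h. The groups do not overlap, and the log2 change was 1.66 ± 0.26 (adjusted p = 8.7e-06, edgeR). Msmo1, the methylsterol monooxygenase, had 264 and 248 CPM at 72 h and 119.9 and 99.2 CPM at 0 h (log2 change 1.22 ± 0.17, adjusted p = 7.0e-07, edgeR). Sqle, the squalene epoxidase, rose by 0.75 ± 0.17 and Cyp51 by 0.98 ± 0.16 on the log2 scale at 72 h. Tm7sf2, a sterol reductase, rose by 1.07 ± 0.35, and Hsd17b7, a ketosteroid reductase of the pathway, by 1.15 ± 0.41. The adjusted p of these 4 was at most 0.032 (edgeR). The calls of Tm7sf2 and Hsd17b7 were lost in the 2iL course alone, that of Tm7sf2 also without either of 2 single libraries (adjusted p up to 0.28) and that of Hsd17b7 without any of 3 (up to 0.32, edgeR). Nsdhl, a sterol dehydrogenase, changed by 0.46 ± 0.28, Dhcr7, which makes cholesterol from dehydrocholesterol, by 0.59 ± 0.32, and Fdft1, the squalene synthase, by 0.01 ± 0.25 (adjusted p = 0.24, 0.18 and 0.98, edgeR). The 3′ ends of Fdft1 and Cyp51 overlap those of Ctsb and Akap9 on the other strand, and the sources used here do not give the strand setting of the counting, so reads of these pairs may not be told apart.

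Ebp and Sc5d, which act next to each other in the pathway, had moved in opposite directions by 72 h against 0 h in the 2iL course. Ebp had 102 and 107 CPM at 2iL 0 h, 75.8 and 58.6 CPM at 24 h, and 65.8 CPM at 36 h. It had 43.2 and 48.5 CPM at 48 h, 35.3 and 36.9 CPM at 60 h, 23.3 and 23.1 CPM at 72 h, 36 and 35.6 CPM at 84 h, and 28.6 and 30.3 CPM at 96 h. Every library after withdrawal lay below both libraries at 0 h, and replicates agreed closely at each time from 48 h, the times with a library apart included. The log2 change at 72 h was -2.17 ± 0.19 (adjusted p = 2.5e-10, edgeR). Sc5d, the sterol desaturase that follows Ebp, had 69.8 and 69.3 CPM at 2iL 72 h, against 34.6 and 34.5 CPM at 0 h (log2 change 1.01 ± 0.20, adjusted p = 2.5e-04, edgeR), and 35.6 and 22.5 CPM at 24 h, where it did not pass the test.

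**Figure D2:**
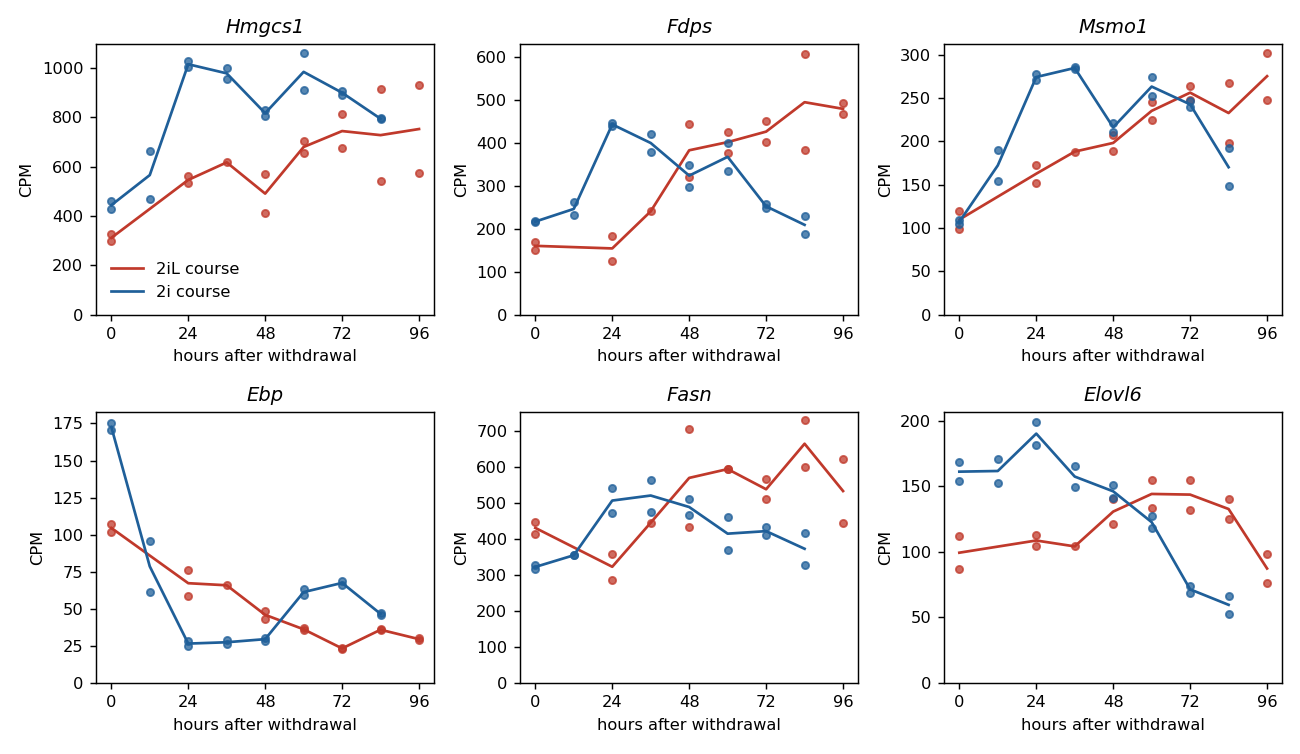
Level in CPM (vertical axes, from 0) against hours after withdrawal for 6 genes in the 2iL course (red) and the 2i course (blue). Points are libraries and lines join group means. Hmgcs1, Fdps and Msmo1 peak at 24 to 36 h in the 2i course and climb to 60 h or later in the 2iL course, Ebp falls in both courses, and Elovl6 falls to 52.4 and 66.5 CPM at 2i 84 h.

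At 24 h in the 2iL course only a few members were called. Of the 18 sterol genes 14 had positive log2 changes there, with a median of 0.38. The replicates of 2iL 24 h differed by a median of 0.47 on the log2 scale over the members, against 0.10 to 0.41 in the other groups. Replicate 2 of 2iL 24 h was also the shallowest library used, with 1122648 counts. The part of this spread and depth in the low count of calls was not tested. Hmgcs1, Cyp51 and Msmo1 rose, and Ebp and Acly fell. Acly, the citrate lyase that supplies cytosolic acetyl-CoA to both pathways, had 135 and 133 CPM at 24 h, below the 201 and 194 CPM at 0 h (log2 change -0.56 ± 0.16, adjusted p = 0.021, edgeR). None of the 5 calls held without 2iL 0 h replicate 2, and 1 or 2 held without any other library of this comparison. Fitted on the 2iL course alone 1 of the 5 was called (Cyp51), and without the 4 libraries that stand apart 8 members were called, with Srebf1, Fasn and Scd2 falling as well. Over all tested genes 911 of 12208 were called in the 2iL course alone and 2423 of 12400 without the 4 libraries. With all 31 libraries 1452 of 12556 were.

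In the 2i course the rise came within a day and was then partly lost. Of the 30 members 16 rose at 24 h and 1 fell, or 56.7% called against 17.3% of all tested genes, of which 8.47% rose and 8.86% fell. The sterol genes gave 11 rises and 1 fall of 18, with a median log2 change of 0.92, and 3 of the 4 regulators rose. Of the 8 fatty acid genes 2 rose, with a median of 0.25, beside a median of -0.02 over all tested genes. At 12 h 3 members had risen (5.43% of tested genes) and 1 had fallen (5.37%), in all 13.3% against 10.8%. At 36 h 16 had risen (8.72%) and 1 had fallen (8.79%), in all 56.7% against 17.5%. At 48 h 10 had risen (10.2%) and 1 had fallen (9.99%), in all 36.7% against 20.2%. At 60 h 12 had risen (12.4%) and 1 had fallen (11.7%), in all 43.3% against 24.1%. The count of rises was thus highest at 24 and 36 h. At 72 h 9 had risen (14.1%) and 2 had fallen (14.2%), in all 36.7% against 28.2%. At 84 h 8 had risen (16.6%) and 2 had fallen (16.6%), and the share of members called, 33.3%, was that of all tested genes, 33.2%. Without 2i 0 h replicate 2 the counts called were 9 at 36 h, 6 at 48 h, 8 at 60 h and 6 at 84 h, and 13 at 24 h. At 36 h 10 members were called when replicate 1 of 2i 0 h was left out, and 11 when replicate 1 of 2i 36 h was. At 48 h 7 were called without replicate 2 of that time. At 12 h fewer were called without either 0 h library. More members, and more of all tested genes, were called at 12 h when the 4 libraries apart were left out. Over all 7 times jointly 21 of 30 members changed in the 2i course (70%, against 52.3% of tested genes).

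Hmgcs1 had 461 and 426 CPM at 2i 0 h, 663 and 468 CPM at 12 h, 1002 and 1028 CPM at 24 h, and 955 and 1001 CPM at 36 h. It had 829 and 804 CPM at 48 h, 909 and 1059 CPM at 60 h, 908 and 891 CPM at 72 h, and 796 and 792 CPM at 84 h. It thus stayed above both 0 h libraries to the end, with a log2 change of 1.19 ± 0.21 at 24 h and 0.84 ± 0.21 at 84 h (adjusted p = 7.8e-05 and 0.0021, edgeR). Fdps had 216 and 217 CPM at 2i 0 h, 231 and 261 CPM at 12 h, 439.6 and 446 CPM at 24 h, and 378 and 421 CPM at 36 h. It had 298 and 349 CPM at 48 h, 400.5 and 334 CPM at 60 h, 257 and 247 CPM at 72 h, and 229.8 and 188 CPM at 84 h. The 84 h libraries lay on both sides of the 0 h libraries, and the change at 84 h did not pass the test (log2 change 1.03 ± 0.19 at 24 h, adjusted p = 1.7e-04, and -0.05 ± 0.19 at 84 h, adjusted p = 0.87, edgeR). Mvk rose as well, with 60.8 and 55.1 CPM at 24 h and 24.2 and 20.9 CPM at 0 h (log2 change 1.35 ± 0.24, adjusted p = 9.2e-05, edgeR), and 24.6 and 30 CPM at 84 h.

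Later in the pathway, Msmo1 had 271 and 277 CPM at 2i 24 h, against 109 and 105 CPM at 0 h, a log2 change of 1.35 ± 0.17 (adjusted p = 3.2e-07, edgeR). It was already up at 12 h, with 190.1 and 154 CPM (log2 change 0.69 ± 0.17, adjusted p = 0.0075, edgeR). Over the alternatives this change at 12 h was 0.53 to 0.85, and the call was lost without any of 3 single libraries. Sqle had 354 and 407 CPM at 24 h and 192 and 218 CPM at 0 h (log2 change 0.90 ± 0.17, adjusted p = 1.7e-04, edgeR). Lss had 55.9 and 52.6 CPM at 24 h and 29.4 and 22 CPM at 0 h (log2 change 1.06 ± 0.24, adjusted p = 0.0018, edgeR). Acat2, Pmvk, Cyp51, Nsdhl and Hsd17b7 rose at 24 h as well, by log2 changes of 0.67 to 1.66. Hsd17b7 had the largest of these, with 25.5 and 34.7 CPM at 24 h and 11.1 and 7.69 CPM at 0 h (log2 change 1.66 ± 0.39, adjusted p = 0.0028, edgeR). The calls of Hsd17b7 and Pmvk were each lost without either of 2 single libraries. Mvd, Fdft1, Idi1, Tm7sf2, Sc5d and Dhcr7 had positive log2 changes of 0.43 to 1.80 at 24 h that did not pass the test, with adjusted p-values of 0.062 to 0.31 (edgeR). Mvd, Fdft1 and Idi1 were called without the 4 libraries that stand apart or in the 2i course alone.

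Ebp was the 1 member that fell at 24 h in the 2i course. It had 170.4 and 175 CPM at 2i 0 h, 61.1 and 96.0 CPM at 12 h, 25 and 27.9 CPM at 24 h, and 26 and 28.7 CPM at 36 h. It had 28.4 and 30.5 CPM at 48 h, 59.4 and 63.0 CPM at 60 h, 66.3 and 68.5 CPM at 72 h, and 47.4 and 45.6 CPM at 84 h. All libraries after withdrawal lay below those at 0 h, with the lowest levels from 24 to 48 h and a partial return from 60 h. The log2 change was -2.70 ± 0.19 at 24 h and -1.36 ± 0.18 at 72 h (adjusted p = 4.0e-12 and 5.1e-07, edgeR). Sc5d had its highest level at the last time, with 54.4 and 44.7 CPM at 24 h, 85.4 and 84.1 CPM at 72 h and 90.3 and 82.6 CPM at 84 h, beside 34.5 and 39.0 CPM at 0 h (log2 change at 84 h 1.24 ± 0.20, adjusted p = 1.8e-05, edgeR).

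Of the regulators, 3 rose at 24 h in the 2i course. Insig1, which retains the SREBP complex in the endoplasmic reticulum and is itself a known SREBP target, had 95.6 and 74.1 CPM at 2i 24 h and 40.9 and 28 CPM at 0 h (log2 change 1.27 ± 0.26, adjusted p = 7.0e-04, edgeR). Stard4, which carries cholesterol between membranes, had 103 and 94.5 CPM at 24 h and 59.6 and 44.0 CPM at 0 h (log2 change 0.92 ± 0.19, adjusted p = 7.1e-04, edgeR). Srebf2, which encodes SREBP-2, had 185 and 205 CPM at 24 h and 125 and 142 CPM at 0 h (log2 change 0.55 ± 0.19, adjusted p = 0.04, edgeR), a call lost with DESeq2 and without any one of the 4 libraries. Srebf1 had 12.3 and 8.59 CPM at 2i 24 h and 9.53 and 8.24 CPM at 0 h, and passed the test at no time of the 2i course. In the 2iL course it had 6.77 and 3.77 CPM at 84 h, against 21.6 and 20.8 CPM at 0 h (log2 change -1.99 ± 0.47, adjusted p = 0.0014, edgeR). With 532 counts in 32 libraries its levels are few counts each, and its 3′ end overlaps that of Rai1 on the other strand.

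**Figure D3:**
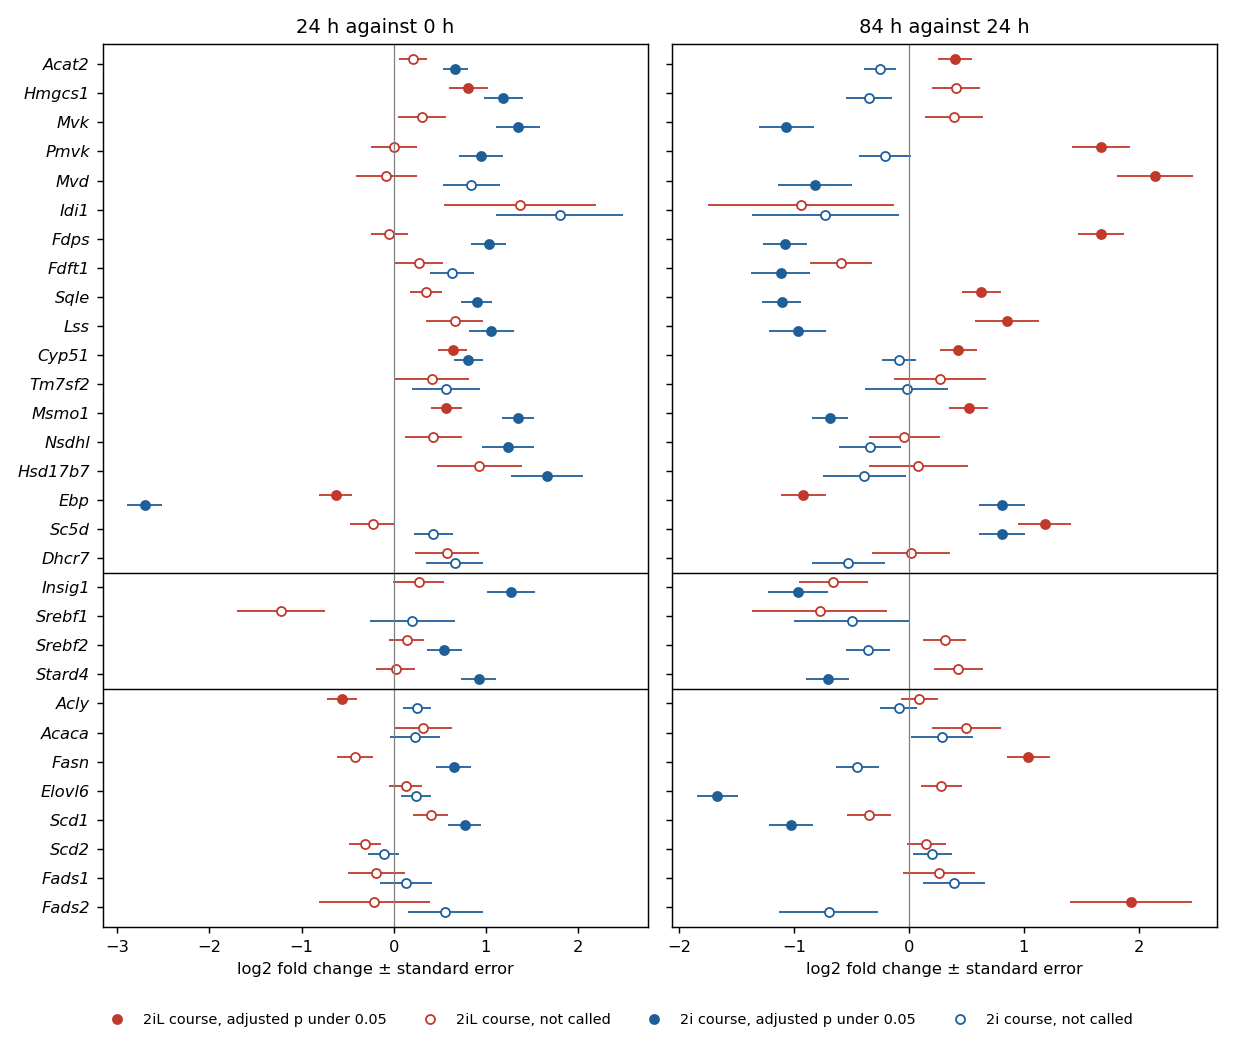
Log2 fold change ± standard error (horizontal axes) of the 30 genes at 24 h against 0 h (left) and at 84 h against 24 h (right) in the 2iL course (red) and the 2i course (blue). Filled points passed the test at an adjusted p under 0.05 (edgeR). On the left 16 of the 30 genes rose in the 2i course and 3 in the 2iL course, where 1063 and 709 of 12556 tested genes rose. On the right 11 genes fell in the 2i course while 11 rose in the 2iL course. Rises and falls together, the share called on the right in the 2i course was close to that of all tested genes.

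Between 24 and 84 h, a comparison that does not use the 0 h libraries, most of the sterol genes called rose in the 2iL course and most fell in the 2i course. In the 2iL course 11 members rose at 84 h against 24 h and 1, Ebp, fell (40% of members, against 30.6% of tested genes, 15.9% higher and 14.7% lower). Of the sterol genes 9 of 18 rose, with a median log2 change of 0.41. Fdps had 383 and 606 CPM at 2iL 84 h and 183 and 125 CPM at 24 h, a log2 change of 1.67 ± 0.20 (adjusted p = 1.2e-07, edgeR). In the 2i course 11 members fell and 2, Ebp and Sc5d, rose (43.3% of members), a share close to the 42.2% of tested genes called, 22.1% higher and 20.1% lower. Of the sterol genes 7 of 18 fell, with a median log2 change of -0.46, beside 0.03 over all tested genes. Sqle had 188 and 165 CPM at 2i 84 h and 354 and 407 CPM at 24 h (log2 change -1.11 ± 0.17, adjusted p = 4.0e-06, edgeR), and Fdps changed by -1.08 ± 0.19 (adjusted p = 4.0e-05, edgeR).

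The fatty acid genes did not share a course. Fasn, the fatty acid synthase, had 472 and 541 CPM at 2i 24 h, above the 328 and 316 CPM at 0 h (log2 change 0.65 ± 0.19, adjusted p = 0.015, edgeR), a call lost without any of 3 single libraries. At 2iL 24 h it had 359 and 286 CPM, below the 414 and 447 CPM at 0 h (log2 change -0.42 ± 0.19, adjusted p = 0.17, edgeR). Fasn had 599 and 729.9 CPM at 2iL 84 h (log2 change 0.62 ± 0.19 against 0 h, adjusted p = 0.011, edgeR). That last call was lost without 2iL 84 h replicate 2, as were those of Acaca, Acly and Fads2 at 84 h. Scd1, which desaturates stearoyl-CoA, had 190.1 and 188 CPM at 2i 12 h and 205 and 230.1 CPM at 24 h, against 136 and 119 CPM at 0 h (log2 change at 24 h 0.77 ± 0.18, adjusted p = 0.0028, edgeR), a call lost without either of 2 single libraries. Its paralog Scd2 had 714 and 521 CPM at 2i 60 h, against 439 and 431 CPM at 0 h (log2 change 0.51 ± 0.16, adjusted p = 0.023, edgeR). Scd2 had 361 and 337 CPM at 2iL 48 h, against 485 and 476 CPM at 0 h (log2 change -0.46 ± 0.17, adjusted p = 0.035, edgeR). The call of Scd2 at 2i 60 h was lost without any of 3 single libraries, and that at 2iL 48 h in 7 of 11 alternatives, among them each that left out 1 of the 4 libraries. Scd1 and Scd2 are close paralogs, and reads that fit both may be split between them.

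Elovl6 fell late in the 2i course, at 72 and 84 h, and was called as a fall at no time of the 2iL course. It had 168 and 154 CPM at 2i 0 h, 171 and 152 CPM at 12 h, 181 and 199 CPM at 24 h, and 149.5 and 165 CPM at 36 h. It had 151 and 141 CPM at 48 h, 127 and 118 CPM at 60 h, 68.8 and 73.7 CPM at 72 h, and 52.4 and 66.5 CPM at 84 h. The libraries at 48, 60, 72 and 84 h lay below both at 0 h, and the log2 change at 84 h was -1.43 ± 0.18 (adjusted p = 1.7e-07, edgeR). In the 2iL course Elovl6 rose at 60 and 72 h, to 155 and 132 CPM at 72 h, against 112 and 86.4 CPM at 0 h (log2 change 0.54 ± 0.17, adjusted p = 0.015, edgeR). Both calls were lost in 4 of 11 alternatives, with adjusted p-values up to 0.26 (edgeR), namely when the filter, the 2i course, replicate 2 of 2iL 0 h or replicate 1 of that time was left out. Fads2, a desaturase of polyunsaturated fatty acids, had 17.2 and 39.9 CPM at 2iL 84 h, against 11.2 and 5.76 CPM at 0 h. With all 31 libraries its partner Fads1 passed the test at no time of either course. Fads1 was called as a rise at 2i 84 h in the 2i course alone and without the 4 libraries that stand apart. Acaca, the acetyl-CoA carboxylase, had 38.4 and 29.8 CPM at 2iL 72 h, against 20.8 and 19.0 CPM at 0 h (log2 change 0.78 ± 0.27, adjusted p = 0.031, edgeR), a call lost with DESeq2, in the 2iL course alone and without any of 3 single libraries.

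**Figure D4:**
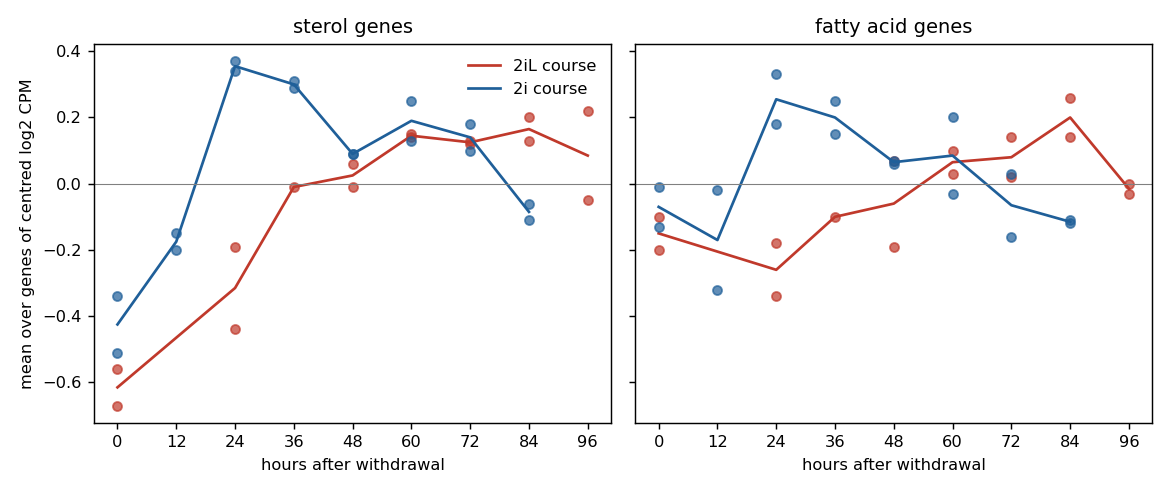
Mean over the 18 sterol genes (left) and the 8 fatty acid genes (right) of log2 CPM minus the mean of each gene over the 31 libraries (vertical axes), against hours after withdrawal. Points are libraries, lines join group means, red is the 2iL course and blue the 2i course. The sterol mean is lowest at 0 h in both courses, and the fatty acid mean moves within a narrower band, from -0.34 to 0.33.

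As branch means, a description without a test, the sterol genes stood at -0.67 and -0.56 at 2iL 0 h and at -0.34 and -0.51 at 2i 0 h, below every later library of the same course. They stood at 0.37 and 0.34 at 2i 24 h and at -0.06 and -0.11 at 2i 84 h. In the 2iL course they stood at -0.19 and -0.44 at 24 h, at 0.15 and 0.14 at 60 h and at -0.05 and 0.22 at 96 h. The fatty acid mean was -0.10 and -0.20 at 2iL 0 h, -0.34 and -0.18 at 2iL 24 h and 0.14 and 0.26 at 2iL 84 h. In the 2i course it was -0.01 and -0.13 at 0 h, 0.18 and 0.33 at 24 h and -0.11 and -0.12 at 84 h. Summed over the branch, sterol transcripts took 3570.5 and 3694 CPM at 2i 24 h, against 2017 and 1932 CPM at 2i 0 h. They took 3015 and 3182 CPM at 2iL 72 h, against 1512 and 1543 CPM at 2iL 0 h. The fatty acid sum was 1530.1 and 1655 CPM at 2i 24 h, against 1304 and 1248 CPM at 2i 0 h. It was 1503 and 1426 CPM at 2iL 72 h, against 1425 and 1432 CPM at 2iL 0 h. The sums follow the genes with most counts, Hmgcs1 and Mvd in the sterol branch and Fasn and Scd2 in the fatty acid branch.

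The difference between the courses was tested gene by gene as the log2 change in 2iL minus that in 2i at the same time. Over the 6 shared times jointly 15 of 30 members differed (50%, against 22.5% of tested genes). They are 9 sterol genes (Ebp, Fdps, Sqle, Mvd, Lss, Pmvk, Msmo1, Acat2 and Mvk), 5 fatty acid genes (Elovl6, Fasn, Acly, Scd2 and Fads2) and Stard4. Without the 4 libraries that stand apart more members differed, the same 15 and Cyp51, Fdft1, Srebf2, Scd1, Insig1 and Hmgcs1. A larger share of all tested genes differed as well in that fit. The call of Fads2 was lost in 22 of 33 alternatives, DESeq2, RLE scaling and the replicate block among them (adjusted p = 0.051 with the block, edgeR). That of Mvk was lost in 18 of 33, DESeq2 and RLE scaling among them, and that of Scd2 in 10 of 33.

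At 24 h 4 of 30 members differed, against 3.08% of tested genes (1.79% positive and 1.29% negative). At 36 h 1 of 30 did, a share near the 3.13% of tested genes (2.07% positive and 1.06% negative). Leaving out single libraries gave 1 to 5 members at 24 h. At 36 h Acly, Fasn and Msmo1 were added to Ebp when the 4 libraries apart were left out, and more of all tested genes differed. At 24 h Ebp had fallen less in the 2iL course, to 75.8 and 58.6 CPM, than in the 2i course, to 25 and 27.9 CPM (log2 difference of the changes 2.07 ± 0.26, adjusted p = 6.2e-06, edgeR). Fdps (-1.08 ± 0.28), Fasn (-1.07 ± 0.27) and Acly (-0.81 ± 0.22) had changed more to the low side in the 2iL course (adjusted p = 0.024, 0.023 and 0.039, edgeR), and these 3 calls were each lost without some single library. The 18 sterol genes had a median difference of -0.51, and without the 4 libraries that stand apart 11 members differed, with Mvd, Sqle, Stard4, Pmvk, Msmo1, Mvk and Insig1 lower in the 2iL course. In that fit 838 of 12400 tested genes differed, against 3.08% with all 31 libraries. Ebp kept a positive difference at 36 h (1.99 ± 0.29) and 48 h (1.36 ± 0.26) and had a negative one at 72 h (-0.81 ± 0.26, adjusted p = 0.046, edgeR), which did not hold with DESeq2 or without any one library.

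The median difference of the sterol genes was -0.30 at 36 h, 0.15 at 48 h, 0.00 at 60 h, 0.05 at 72 h and 0.37 at 84 h. At 48 h 2 of 30 members, Ebp and Srebf1, differed, a share below the 9.17% of tested genes (5.54% positive and 3.64% negative). The call of Srebf1 (log2 difference -2.25 ± 0.69, adjusted p = 0.036, edgeR) was lost with DESeq2 and without 7 of the 8 single libraries compared. Among these was 2iL 48 h replicate 1, which held 1.32 CPM beside 7.22 CPM in replicate 2. With the 4 libraries apart left out, Ebp, Fasn and Lss differed at 48 h and Srebf1 did not, and the count was 4 without 2iL 48 h replicate 2 and 1 without most other single libraries. At 60 h 2 of 30 members differed, again a share below that of tested genes (10.3%, 5.67% positive and 4.60% negative). These were Elovl6 upwards (0.94 ± 0.24) and Scd2 downwards (-0.96 ± 0.23) in the 2iL course. The call of Elovl6 was lost without any of 4 single libraries (adjusted p up to 0.097) and that of Scd2 without either of 2 (up to 0.074, edgeR), so that the count was 1 in 4 of these fits. With the 4 libraries apart left out 6 members differed, Mvd, Lss, Scd1 and Fdps in addition, and 2244 of 12400 tested genes. At 72 h 4 of 30 members differed, against 9.80% of tested genes (5.56% positive and 4.24% negative). These were Elovl6, Fdps, Lss and Ebp, and 7 differed without the 4 libraries that stand apart, with Mvd, Sqle and Scd2 added. Without those 4 libraries 2070 of 12400 tested genes differed at 72 h. By DESeq2, and without any of 5 of the 8 single libraries, 2 differed, since Lss was lost along with Ebp (adjusted p of Lss up to 0.22, edgeR). At 84 h 5 of 30 members differed, against 11.3% of tested genes (6.81% positive and 4.51% negative). Each of the 5 had the more positive change in the 2iL course. These were Mvd (2.03 ± 0.45, adjusted p = 0.0025), Elovl6 (1.84 ± 0.25, adjusted p = 2.8e-06), Fdps (1.68 ± 0.27, adjusted p = 6.2e-05), Lss (1.42 ± 0.38, adjusted p = 0.012) and Sqle (1.19 ± 0.24, adjusted p = 8.1e-04), by edgeR. Leaving out replicate 1 of 2iL 84 h gave 8 members, and Lss was lost without any of 3 other single libraries. Leaving out replicate 2 of 2iL 84 h, the difference of Mvd was 1.31 with an adjusted p of 0.052 (edgeR), while that of Fdps was 1.31 with an adjusted p of 0.0012.

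Over the 16 groups the levels of the sterol genes followed their branch mean to different degrees. The correlation of group means with the branch mean, of which each gene is itself a part, was 0.96 for Msmo1, 0.89 for Lss, 0.88 for Hmgcs1, 0.54 for Sc5d, 0.22 for Fdft1 and -0.82 for Ebp. Among 4110 genes with a mean log2 CPM of at least 5, the courses most like the sterol mean were those of Lin28a (0.94), Pou3f1 (0.94), Otud5 (0.93), Trib1 (0.93) and Pim2 (0.92), and 1.68% of these genes were above 0.8. The fatty acid genes correlated with their own mean by 0.04 (Scd1) to 0.78 (Fads2), and 0.341% of genes were above 0.8 for that mean, led by Pacsin3 and Traf4 (both 0.88). These values are a description over 16 groups of 2 time courses, in which neighbouring times and shared libraries are not independent.

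Some genes around the pathway moved otherwise. Of 10 genes of sterol export, storage and lysosomal transport, 4 fell and none of the others passed the test at 24 h in each course, where 5.92% (2iL) and 8.86% (2i) of all tested genes fell. The 4 are Npc2 and Npc1, which release cholesterol from lysosomes, Apoe, which carries it out of cells, and Gramd1a, which moves it from the plasma membrane. Npc2 had 337 and 259 CPM at 2iL 24 h, against 1152 and 1136 CPM at 2iL 0 h (log2 change -1.94 ± 0.21, adjusted p = 5.6e-08, edgeR), and it changed by -1.67 ± 0.20 at 2i 24 h (adjusted p = 3.1e-07, edgeR). At 2iL 96 h Apoe had 284 and 229 CPM, beside 234 and 244 CPM at 0 h, and Npc1 had 34.4 and 36.6 CPM, above its 24.6 and 22.1 CPM. Npc2 and Gramd1a still lay below their 0 h libraries. Soat1, which esterifies cholesterol for storage, had 127 and 98.6 CPM at 2iL 72 h, against 12.5 and 8.42 CPM at 2iL 0 h (log2 change 3.42 ± 0.22, adjusted p = 1.4e-13, edgeR). In the 2i course Soat1 had 71.1 and 76.9 CPM at 0 h, fell to 17.2 and 10.8 CPM at 12 h and had 185 CPM in both libraries at 72 h. Of 8 genes of acetyl-CoA, citrate and NADPH supply, 4 fell at 2iL 84 h (Cs, Pgd, Pdha1 and Me1) and 4 at 2i 84 h (Slc25a1, Pgd, Pdha1 and Me1), where 17.2% and 16.6% of all tested genes fell. Of 10 genes of fatty acid oxidation, 2 rose and 4 fell at 2iL 84 h and 1 rose and 4 fell at 2i 84 h. Of all tested genes 17.6% rose and 17.2% fell at 2iL 84 h, and 16.6% rose and 16.6% fell at 2i 84 h, so that the rises in the list were near or below these shares. Among them Cpt1a, which admits fatty acids to mitochondria, had 22.4 and 25.4 CPM at 2iL 24 h, against 103 and 106 CPM at 2iL 0 h (log2 change -2.13 ± 0.24, adjusted p = 1.5e-07, edgeR). Acsl4, which activates polyunsaturated fatty acids, changed by 2.36 ± 0.28 at 2i 24 h (adjusted p = 1.7e-07, edgeR) and was 1 of 2 genes called among 9 tested of elongation and further desaturation, near the 17.3% of all tested genes called.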

How the data were processed

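Gene counts of 32 libraries were used as the authors deposited them, as whole raw counts per Ensembl gene. Per the submitters' processing notes, bcl2fastq, STAR 2.6.0a and HTSeq were used with build mm10; other versions, the annotation release and the strand setting are not given in the sources used here. Summary lines that name no gene were left out. Reads in no gene or ambiguous between genes were 23.8 to 55.6% of uniquely aligned reads. This share was 30.9 and 46.4% at 2i 0 h, 33.6 and 25.1% at 2i 24 h, and 53.8 and 55.6% at 2i 84 h. It was 47 and 41.2% at 2iL 0 h, 35.1 and 23.8% at 2iL 24 h, and 54 and 50.4% at 2iL 96 h. Its part in the results was not tested. Symbols came from GENCODE annotation for 30934 of 31053 IDs. Genes were filtered with filterByExpr, scaled by TMM and tested by the quasi-likelihood test of edgeR 4.0.16 (R 4.3.3), with 1 coefficient per group over 31 libraries and Benjamini-Hochberg adjustment over 12556 genes, called at an adjusted p under 0.05. The script was tested on simulated data. Standard errors are the log2 change divided by the root of F, and levels (CPM) are counts scaled to TMM-adjusted library sizes. DESeq2 1.42.0 and other settings were alternatives. Members and gene lists were chosen with earlier results of these data known; named genes are members, called members of the added lists, and the 5 most similar courses. Same-numbered replicates had correlations of deviations of -0.72 to 0.81 (median 0.02, 105 pairs, 25 of them over 0.1). The replicate numbers were therefore not used as pairs in the main fit, and pairing within some groups stays unsettled. The limit of 3 counts covers counting error only.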

Additional observations from a re-analysis of the deposited data

Results flagged for a closer look

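The change after withdrawal differed between the 2iL and the 2i course for 15 members when the 6 shared times were tested jointly by edgeR. Among the sterol genes the adjusted p was 3.2e-09 for Ebp, 7.4e-08 for Fdps, 7.4e-05 for Sqle, 2.2e-04 for Mvd, 0.0017 for Lss, 0.003 for Pmvk, 0.0038 for Msmo1, 0.012 for Acat2 and 0.045 for Mvk. Among the fatty acid genes it was 1.4e-07 for Elovl6, 0.0023 for Fasn, 0.019 for Acly, 0.034 for Scd2 and 0.045 for Fads2, and for the sterol carrier Stard4 it was 0.014. Acly and Stard4 each lost the call without either of 2 single libraries. With no filter on low counts Acly and Acat2 lost it. Fads2 lost it in 22 of 33 alternatives, Mvk in 18 and Scd2 in 10, with DESeq2 and RLE scaling among those of Fads2 and Mvk and the replicate block among those of Fads2. Srebf1 differed at 48 h alone, by a log2 difference of -2.25 (2iL minus 2i), and lost that call with DESeq2 and without 7 of the 8 libraries compared. Groups of 2 libraries are too small for a check of single libraries against their group.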

How the results depend on the processing

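The count of members called between 2i and 2iL before withdrawal was 3, and it was 5 with no filter on low counts, 10 in the 4 libraries at 0 h alone and 10 when the 4 libraries apart were left out. Over all tested genes these 4 fits called 1004 of 12556, 987 of 23898, 1984 of 9653 and 1663 of 12400. At 2iL 24 h the count of members was 5, and it was 1 in the 2iL course alone and 8 when the 4 libraries apart were left out. Over all tested genes these fits called 1452 of 12556, 911 of 12208 and 2423 of 12400. Leaving out 1 library of the groups compared gave 1 to 2 members for 2i against 2iL and 0 to 2 for 2iL 24 h, where the 0 (edgeR, without 2iL 0 h replicate 2) stands beside 6 members at an unadjusted p under 0.05 and 4 called by DESeq2 with all libraries. Leave-one-out counts were 12 to 16 for 2i 24 h, 11 to 12 for 2i 84 h against 24 h, 9 to 11 for 2iL 84 h against 24 h, 17 to 21 and 16 to 21 for the 2i and 2iL courses jointly, and 11 to 17 for their difference, each within 1.5 times of the count with all libraries. Counts at other times moved by more, to 9 of 17 at 2i 36 h, 6 of 11 at 2i 48 h, 8 of 13 at 2i 60 h, 6 of 10 at 2i 84 h, 3 of 6 at 2iL 36 h and 10 of 17 at 2iL 60 h. The replicate block changed 4 of 278 called member results and gave 2 for 2i against 2iL, 17 for 2i 24 h, 5 for 2iL 24 h, 14 and 12 for 84 h against 24 h in the 2i and 2iL courses, 21 and 20 for the courses jointly and 14 for their difference. DESeq2 kept 257 of the 278 and lost 21, and no called result reversed under any alternative. The cause of these shifts was not tested. With 2 libraries a group and 3 counts worth up to 2.67 CPM, changes in Idi1 and Srebf1 were poorly resolved.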
